A study of Mus musculus with 9 samples.

Results

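The genes examined were the 5 that encode the NF-κB subunits, *Rela*, *Relb*, *Rel*, *Nfkb1* and *Nfkb2*, of 37273 annotated mouse genes. Every peak of RelA or RelB binding whose centre lay within 50 kb of the start site of one of these genes was taken, and this gave 38 of the 25055 peaks in 8 lists. Binding had been measured by ChIP-seq, in which antibody-bound chromatin is sequenced, in mouse embryonic fibroblasts (MEFs) of the genotype *Nfkb2*-/-, which lack p100, with an antibody against RelA (p65) or RelB, before stimulation (0 h) and after 6 h of 10 ng/ml TNF, with 2 libraries for each antibody and time. The *Nfkb2*-/- genotype was shared by all 8 libraries and by the input, which was 1 library pooled from both replicates, so no comparison with wild-type cells could be made here. The MEFs of the study came from C57BL/6 mice and had been immortalized, and neither the labels nor the methods say whether the 2 libraries of a group came from separate cultures, so the tests below measure only the spread between these libraries, which may be technical.

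NF-κB proteins bind DNA as dimers. RelA, RelB and cRel (the product of *Rel*) carry activation domains, whereas *Nfkb1* and *Nfkb2* encode the precursors p105 and p100, which give rise to the DNA-binding subunits p50 and p52 and also hold other subunits in inactive complexes. Several of the subunit genes are known targets of NF-κB, a feedback called autoregulation, and dimers recognise a short palindrome-like κB site that starts with G residues and ends with C residues.

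At 0 h none of the 4 libraries had a peak within 50 kb of any of the 5 genes, and at 6 h every one of the 4 libraries had at least 1 peak near each of them. In every gene a site at the promoter, here within 1 kb of the start site, was called with both antibodies and in both replicates. At *Rela* the RelB peaks of the 2 replicates did not overlap and were joined only through a RelA peak. No single stretch was thus called in all 4 libraries there. By the fold of the strongest window, the sites at *Relb* and *Nfkb2* were the strongest in RelA, and the site at *Rela* was higher in RelA than in RelB. The order depends on the measure. By the log2 ratio of ChIP to input reads over the whole peak, *Relb* was 5th in RelA of the 6 sites called in all 4 libraries. The first 5 means lay close together, from 2.31 down to 2.10 at *Relb*. The difference at *Rela* also depends on the measure. That difference was 1.51 on the log2 scale by the strongest window and 0.50 by the whole peak, where it did not pass its test. By the whole peak the differences at *Relb* (0.87) and *Rel* (0.53) were larger than at *Rela*, and they did not pass either. Peak lists show only where binding was called, and a region without a peak may still be bound below the threshold of the call.

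Sequences of the promoter sites and of the *Nfkb1* intron site are shown. They lie in or beside the 6 sites called in all 4 libraries at 6 h. The windows hold some of the κB matches described below or, upstream of *Rela*, none. Other matches fall outside the windows, among them those in the UTRs of *Rel* and *Nfkb1* that lay under all 4 peaks. Not every window was itself under a peak in all 4 libraries. They were read from the mm9 genome in the direction of the gene, 5′ to 3′, and capitals mark matches to the κB consensus, a pattern of 10 letters with GG at one end and CC at the other that was searched on both strands, with overlapping matches joined. The *Relb* window is chr7:20214857-20214957 on the minus strand, the *Nfkb2* window chr19:46379157-46379226 on the plus strand and the *Rel* window chr11:23671030-23671100 on the minus strand. The *Nfkb1* windows are chr3:135354551-135354661 at the promoter and chr3:135333711-135333771 in the intron, both on the minus strand. The *Rela* windows are chr19:5637403-5637482, just upstream of the start site, and chr19:5637873-5637933, in an intron, both on the plus strand.
Relb promoter: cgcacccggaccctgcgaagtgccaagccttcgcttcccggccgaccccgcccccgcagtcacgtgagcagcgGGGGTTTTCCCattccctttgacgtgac
Nfkb2 promoter: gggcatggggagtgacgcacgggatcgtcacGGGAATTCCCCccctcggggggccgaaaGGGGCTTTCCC
Rel promoter: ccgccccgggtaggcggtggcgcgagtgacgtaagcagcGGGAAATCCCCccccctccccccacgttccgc
Nfkb1 promoter: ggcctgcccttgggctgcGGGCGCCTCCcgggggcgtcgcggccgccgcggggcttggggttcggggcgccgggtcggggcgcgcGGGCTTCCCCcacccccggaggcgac
Nfkb1 intron: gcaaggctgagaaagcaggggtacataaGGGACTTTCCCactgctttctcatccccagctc
Rela upstream: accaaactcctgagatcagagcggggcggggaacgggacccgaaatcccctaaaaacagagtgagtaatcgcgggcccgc
Rela intron: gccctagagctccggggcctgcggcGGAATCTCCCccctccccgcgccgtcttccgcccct
The *Relb*, *Nfkb2*, *Rel* and *Nfkb1* intron windows each hold a run of 11 bases in which more than 1 match overlaps, whereas the *Rela* upstream window holds none.

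The lists give, for each peak, the number of ChIP reads and input reads and the log2 fold, ChIP over scaled input, in its strongest window. At 0 h there were 182 and 194 RelA peaks and 35 and 14 RelB peaks. At 6 h the numbers were 7052 and 5688 with the RelA antibody and 5192 and 6698 with the RelB antibody. Reads in peaks at 6 h ranged from 120352 to 162105 per library, and the total reads of each library are not in the lists, so its depth is unknown and no limit can be set on binding where no peak was called. All peaks had a false discovery rate (FDR) under 0.1. The read number of a peak was often larger than its listed ends would hold. The *Nfkb2* peak of RelA replicate 1, for example, is 52 bp long and has 199 ChIP reads, with 58 in its fullest window of 200 bases, and the sources used here do not say over which stretch reads were summed. The deposited peaks cannot check the loss of *Nfkb2* itself, because the extent of the deletion is not given in the sources used here.

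The first comparison asked whether binding near the subunit genes differed between 0 h and 6 h. Near *Rela* there were 2, 2, 1 and 2 peaks at 6 h in RelA replicate 1, RelA replicate 2, RelB replicate 1 and RelB replicate 2, in that order. *Relb* had 3, 3, 1 and 3, and *Rel* had 1 in each library. *Nfkb1* had 4, 2, 2 and 2, and *Nfkb2* had 1, 1, 2 and 3. The values at 6 h did not overlap those at 0 h, which were 0 throughout, for any of the 5 genes. The mean at 6 h was 1.75 ± 0.50 for *Rela*, 2.50 ± 1.00 for *Relb*, 1.00 ± 0 for *Rel*, 2.50 ± 1.00 for *Nfkb1* and 1.75 ± 0.957 for *Nfkb2* (SD, n = 4). Each of the 5 differences had p = 0.0286 in a two-sided exact permutation test over the libraries, the smallest p that 4 libraries against 4 can give. Over all annotated genes 4095, or 11%, had more peaks in every 6 h library than in any 0 h library, and after Benjamini-Hochberg adjustment over all 37273 genes the exact test gave an adjusted p of 0.260 for each of the 5. No gene in the genome passed 0.05 after adjustment, and 4095 had an unadjusted p under 0.05. The total number of peaks differed between 0 h and 6 h in the same way as the numbers near these genes, and its part in the result was not tested.

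**Figure D1:**
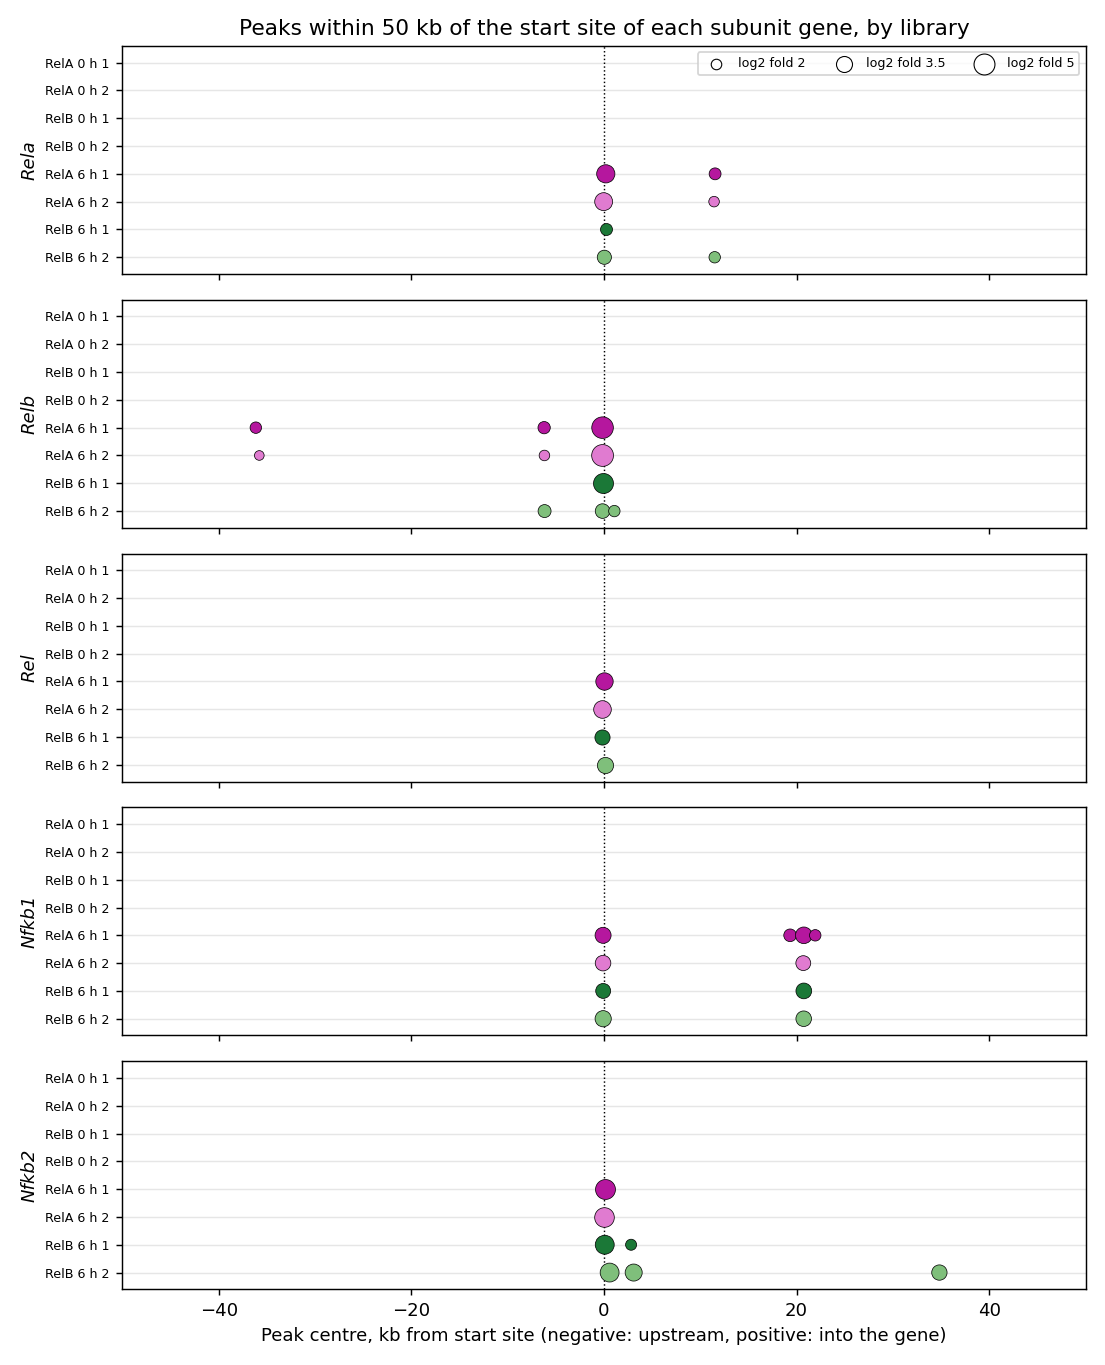
Position of each peak centre relative to the start site of its gene, in kb, with 1 row per library and 1 panel per gene, and with the area of a point growing with its log2 fold over input. The rows of the 0 h libraries are empty in all 5 panels, and every 6 h library has a peak within 1 kb of the start site of each gene.

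No 0 h peak lay close to these genes. The nearest was 1071 kb from the *Nfkb2* start site and 1773 kb from that of *Rel*, both in RelA replicate 2. For the other 3 genes it was between 6434 kb, at *Nfkb1*, and 26295 kb, at *Relb*.

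Peaks of the 6 h libraries that overlapped by at least 1 bp were joined into sites. There were 16 sites near the 5 genes, of which 6 were called in all 4 libraries, 2 in 3 libraries, 0 in 2 and 8 in 1 library. In the genome 1860 of 14781 sites were called in all 4 libraries, a share of 12.6%, against 37.5% near these genes. Each of the 5 genes had at least 1 such site within 50 kb, beside 8.88% of all annotated genes. Each also had 1 within 1 kb of its start site, beside 0.778% of all annotated genes and 1.05% of protein-coding genes. *Nfkb1* had a second one in an intron and was 1 of 442 genes with more than 1 such site.

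Among the activating subunits, *Relb* (chr7:20191566-20214787, minus strand) encodes the partner of p52 and p50 that is best known for lymphoid organ development. Its promoter site at chr7:20214912-20214946 lay 142 bp upstream of the start site, outside the gene. RelA replicates 1 and 2 gave log2 folds of 5.21 and 5.29, and RelB replicates 1 and 2 gave 4.70 and 3.10. The RelA peaks ranked 6th of 7052 and 5th of 5688 in the deposited order of their libraries. That order does not follow the log2 fold alone. In RelB replicate 2, for example, an *Nfkb2* peak with 3.81 ranked 3113th and the *Nfkb1* promoter peak with 3.56 ranked 638th. RelB replicate 1 ranked 34th of 5192 and RelB replicate 2 2699th of 6698, so the RelB replicates stood far apart. Their difference of 1.60 exceeded that of 99.9% of the sites called in all 4 libraries, where the median difference between RelB replicates was 0.289. The reads were closer than the folds. The peak held 114 and 120 ChIP reads with RelA and 65 and 51 with RelB, over 26, 27, 26 and 23 input reads. In both RelA libraries and in RelB replicate 1 the fold equals that of a window with no input read, to within 0.001, whereas in RelB replicate 2 it does not. ChIP reads per input read over the peak were 4.38 and 4.44 in RelA and 2.50 and 2.22 in RelB.

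These 3 were the only windows without input among the 24 values of the 6 sites, and over all sites called in all 4 libraries 13.6% of values came from such a window. The κB run GGGGTTTTCCC lay 87 to 97 bp upstream of the *Relb* start site. Its matches were centred 49 and 50 bp from the centre of the site, and it lay outside the listed ends of all 4 peaks, which are 29 to 34 bp long.

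*Relb* had 4 further sites. One at chr7:20220857-20221075, 6.18 kb upstream, lies in an intron of *Clptm1*, which runs on the same strand, although the nearest start site was that of *Relb*. It was called in 3 libraries, with log2 folds of 2.46 and 2.01 in RelA and 2.65 in RelB replicate 2, from 21, 15 and 23 ChIP reads. It held the run GGGGGTTTCCC, 6130 to 6140 bp upstream of the *Relb* start, under the peak of RelB replicate 2 alone. The remaining 3 were each called in 1 library. A peak of RelB replicate 2 with a log2 fold of 2.23 lay in a non-coding exon of *Relb*, 1079 bp downstream of the start. The other two, 36.1 and 35.8 kb upstream, were called in RelA replicate 1 (2.24) and RelA replicate 2 (1.79). They were separated by 211 bp and lay 554 and 193 bp from the start site of *Clptm1*, far closer to that gene than to *Relb*.

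*Rela* (chr19:5637483-5648130, plus strand) encodes the main activating subunit of the canonical pathway. Its promoter site at chr19:5637400-5637949 spans the start site, and its centre lies in the UTR. The log2 fold was 4.16 and 4.06 in the RelA libraries, from 67 and 47 ChIP reads over 13 and 9 input reads. In the RelB libraries it was 2.38 and 2.97, from 11 and 25 ChIP reads over 3 and 6 input reads. Both RelA values lay above both RelB values. The RelA peaks ranked 189th of 7052 and 171st of 5688, and the RelB peaks 4516th of 5192 and 2262nd of 6698. The RelB peak of replicate 1, with an FDR of 0.0283, lay at chr19:5637673-5637701, downstream of the start, and that of replicate 2 at chr19:5637450-5637598. They were 74 bp apart and were joined only through the 550 bp peak of RelA replicate 1, so this site does not hold 1 stretch that was called in all 4 libraries.

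No κB match was found within 100 bp of the centre of the *Rela* promoter site. The only one in the site was GGAATCTCCC, in an intron 415 to 424 bp downstream of the start, under the peak of RelA replicate 1 alone. The other *Rela* site, at chr19:5648805-5649210, was beyond the 3′ end of the gene, 11.5 kb downstream of the start. It was weaker, with 2.36 and 2.01 in RelA and 2.23 in RelB replicate 2, from 20, 12 and 14 ChIP reads, and it held the run GGGGAAACCCC under all 3 peaks.

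*Rel* (chr11:23641514-23670970, minus strand) encodes cRel, which is most abundant in lymphoid cells. It had 1 site, at chr11:23670670-23671621, across its start site. Log2 folds of 3.90 and 3.98 were found with RelA and of 3.26 and 3.56 with RelB. The groups did not overlap, but the difference did not pass in the fit given below (limma adjusted p = 0.284). ChIP reads were 97, 105, 60 and 74 over 20, 19, 19 and 19 input reads. The run GGGAAATCCCC lay 81 to 91 bp upstream of the start, under the peaks of RelA replicate 2 and RelB replicate 1, which are 952 and 916 bp long. The peaks of RelA replicate 1 and RelB replicate 2, 252 and 249 bp long, ended before it. A further match, GGGGTGGTCC in the UTR, 84 to 93 bp downstream of the start, lay under all 4 peaks. Another, GGGGGTCCCC, 561 to 570 bp upstream, lay under the 2 long peaks.

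*Nfkb1* (chr3:135247619-135354511, minus strand) encodes p105, the precursor of p50. At its promoter site, chr3:135354461-135354746, the log2 fold was 3.51 and 3.38 in RelA and 3.19 and 3.56 in RelB. The site had 54 and 42 ChIP reads in RelA and 33 and 39 in RelB, over 12, 8, 8 and 9 input reads. Here the RelA and RelB values overlapped. Matches lay under all 4 peaks, GGGCTTCCCC at 56 to 65 bp and GGGCGCCTCC at 123 to 132 bp upstream of the start, and GGGAATTTCC in the UTR, 31 to 40 bp downstream.

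The *Nfkb1* intron site at chr3:135333686-135333939 lay 20.7 kb into the gene. Its folds were in the range of those at the promoter, with 3.68 and 3.17 in RelA and 3.42 and 3.37 in RelB, and with 65, 47, 58 and 59 ChIP reads over 24, 18, 20 and 20 input reads. The run GGGACTTTCCC, 20768 to 20778 bp downstream of the start, lay under all 4 peaks. On either side of this site RelA replicate 1 had a further intron peak, 19.3 kb (2.57, from 11 ChIP reads) and 21.9 kb (2.24, from 18 ChIP reads) downstream of the start, which no other library had.

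*Nfkb2* (chr19:46379227-46386580, plus strand) encodes p100, the precursor of p52, and is the gene disrupted in these cells. Its site spanned chr19:46378781-46380849 because the peak of RelB replicate 2 is 2069 bp long. The stretch shared by all 4 peaks, chr19:46379296-46379347, lay in an intron 69 to 120 bp downstream of the start. The log2 fold was 4.68 and 4.59 in RelA and 4.38 and 4.37 in RelB. The RelA values were slightly higher without overlap, but the difference did not pass in the fit given below (limma adjusted p = 0.548). ChIP reads were 199, 191, 181 and 221, the most of the 6 sites in every library, over 41, 38, 41 and 44 input reads. The peaks ranked 34th of 7052, 46th of 5688, 92nd of 5192 and 152nd of 6698.

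The *Nfkb2* runs GGGAATTCCCC and GGGGCTTTCCC lay 29 to 39 and 1 to 11 bp upstream of the start, at the edge of or outside most of the called peaks. The first was under the peak of RelB replicate 2 alone and the second under those of RelA replicate 2 and RelB replicate 2. Within the gene RelB replicate 1 had a peak 2.82 kb downstream of the start (2.13, from 13 ChIP and 5 input reads). RelB replicate 2 had one 3.09 kb downstream (3.81, from 13 ChIP and 0 input reads). The 2 peaks were 2 bp apart and were not joined. RelB replicate 2 also had a peak 34.8 kb downstream (3.30, from 25 ChIP reads), which lay 907 bp from the start site of *Cuedc2*.

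**Figure D2:**
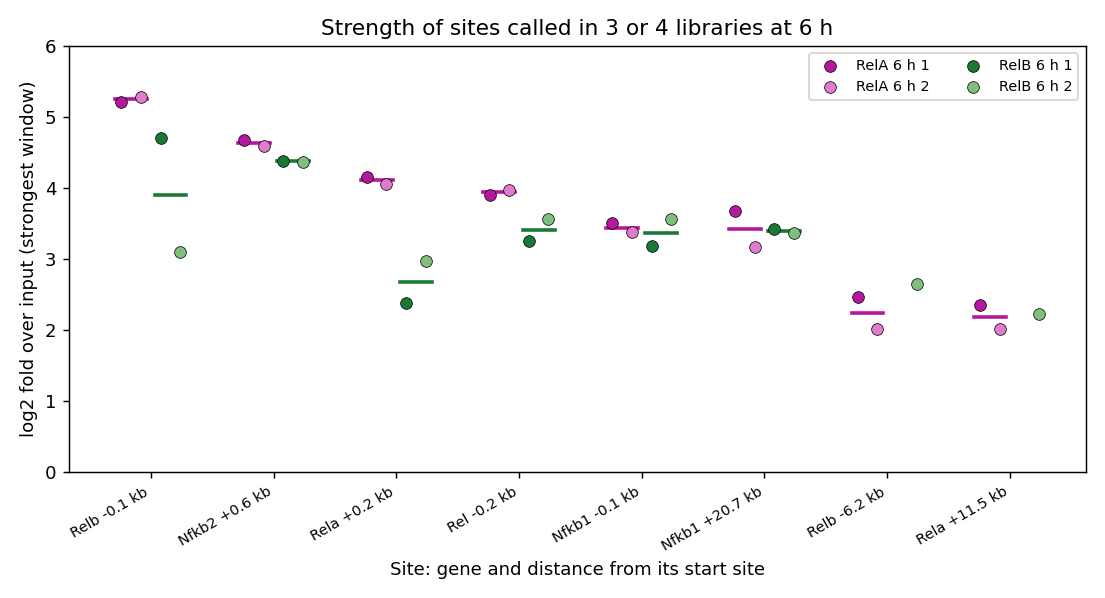
Log2 fold over input, taken in the strongest window, of each 6 h library (points) at the sites called in 3 or 4 libraries, with a bar at the mean of the 2 libraries of an antibody where both have a peak. The *Relb* promoter site has the highest RelA values, 5.21 and 5.29, with RelB values spread from 3.10 to 4.70, and the *Rela* promoter site has RelA values of 4.16 and 4.06 above RelB values of 2.38 and 2.97.

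The 8 sites called in 1 library had log2 folds from 1.79 to 3.81 and ChIP reads from 11 to 25. The highest folds among them, 3.81 and 3.30 at *Nfkb2*, were above every value of the sites called in 3 libraries and overlapped those of the sites called in all 4. They fell evenly, with 4 in RelA and 4 in RelB libraries. In the genome 67.9% of the sites were called in 1 library.

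**Figure D3:**
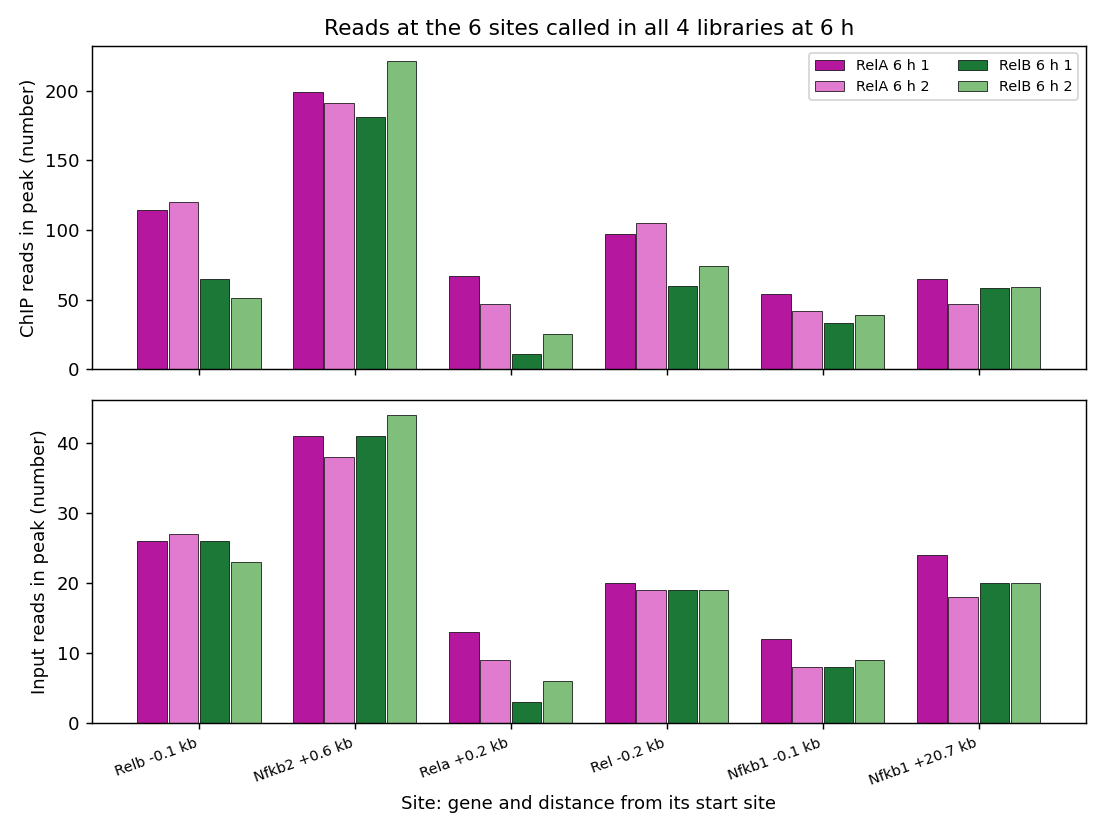
Number of ChIP reads (upper panel) and input reads (lower panel) in the peak of each 6 h library at the 6 sites called in all 4 libraries, as deposited and without scaling between libraries. The *Nfkb2* site has the most ChIP reads, 181 to 221, and the *Rela* site has 11 and 25 in the RelB libraries against 67 and 47 in the RelA libraries.

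The second comparison asked whether RelA and RelB differed in strength at the shared sites. The log2 fold of RelA minus RelB was fitted with limma over the 1860 sites called in all 4 libraries, each library centred on its median, and 11 of them, 0.591%, passed an adjusted p of 0.05, 8 higher in RelA and 3 higher in RelB. Of the 6 sites near the subunit genes, 1 passed. At the *Rela* promoter site RelA exceeded RelB by 1.51 (SE 0.288, 95% interval 0.88 to 2.15, limma adjusted p = 0.0471), more than at 99.6% of the sites. The call was close to the threshold and rested on the peaks described above that did not overlap. It was kept with only peaks of a log2 fold of at least 2 (difference 1.55, limma adjusted p = 0.0385), without RelA replicate 2 (1.57, 0.0237) and with the replicate number as a block (1.51, 0.00233). It was lost, with a difference of about the same size, when no centring was applied (1.43, limma adjusted p = 0.0631), with quantile normalization (1.503, 0.0503) and when peaks were joined by centres within 500 bp (1.52, 0.0873). It was also lost with the reads of the whole peak in place of the strongest window (difference 0.50, 0.300), and without RelB replicate 1 (1.22, 0.161) or RelB replicate 2 (1.73, 0.435). Without RelA replicate 1, and with peaks of an FDR under 0.01 only, the site was no longer called in all libraries.

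The *Relb* promoter site had a difference of nearly the same size, 1.43 (SE 0.441, 95% interval 0.46 to 2.40), that did not pass (limma adjusted p = 0.159). Its value depended on the RelB replicates that stood apart. It was 2.24 without RelB replicate 1, with an adjusted p of 0.0368 by limma, and 0.55 without RelB replicate 2, which did not pass. With the replicate number as a block the limma adjusted p was 0.00898. At the *Rel* promoter site the difference was 0.61 (SE 0.270, limma adjusted p = 0.284), and with whole-peak reads 0.53 (limma adjusted p = 0.290).

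The differences at the other 3 sites were small beside their error. The fitted value was 0.35 (95% interval -0.24 to 0.93, limma adjusted p = 0.548) at *Nfkb2*, 0.15 (95% interval -0.45 to 0.75, limma adjusted p = 0.818) at the *Nfkb1* promoter and 0.11 (95% interval -0.51 to 0.74, limma adjusted p = 0.865) in the *Nfkb1* intron. These intervals still allow differences of up to 0.93 on the log2 scale, and they do not show that RelA and RelB bound alike. All 6 fitted differences were positive, the direction of higher RelA, also without centring and with quantile normalization, but those at the *Nfkb1* sites turned negative when single libraries were left out and that in the intron also with whole-peak reads. The median log2 fold over all 1860 sites was 3.16 in RelA and 3.25 in RelB, and over the 6 sites it was 4.03 and 3.40.

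Within the order of the 1860 sites by RelA fold, the *Relb* site lay at or above 99.8%, the *Nfkb2* site 98.2%, the *Rela* site 90.8% and the *Rel* site 86.8%, and the *Nfkb1* sites were at 67.8% (promoter) and 66.4% (intron). By RelB fold the order was *Nfkb2* (94.9%), *Relb* (82.8%), *Rel* (59.6%), the *Nfkb1* intron (58.8%), the *Nfkb1* promoter (57.3%) and *Rela* (18.3%). In RelB the neighbours from *Rel* to the *Nfkb1* promoter differed by less than their replicates did, and *Relb* differed from both of its neighbours by less than its own replicates differed. In RelA the gap between *Rela* (4.11) and *Rel* (3.94) was larger than their own replicate differences, 0.0953 and 0.0722. It was smaller than the median RelA replicate difference over all 1860 sites, 0.281, so their order is not resolved. The *Nfkb1* sites (3.44 and 3.43) could not be told apart in RelA. The rank of *Relb* in RelA rests on the windows without input reads described above. With the log2 ratio of ChIP to input reads over the whole peak, 1 read added to each, a measure chosen after the data were seen, the RelA means were 2.31 at *Rel*, 2.28 at *Nfkb2*, 2.27 at *Rela*, 2.17 at the *Nfkb1* promoter, 2.10 at *Relb* and 1.37 in the *Nfkb1* intron.

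**Figure D4:**
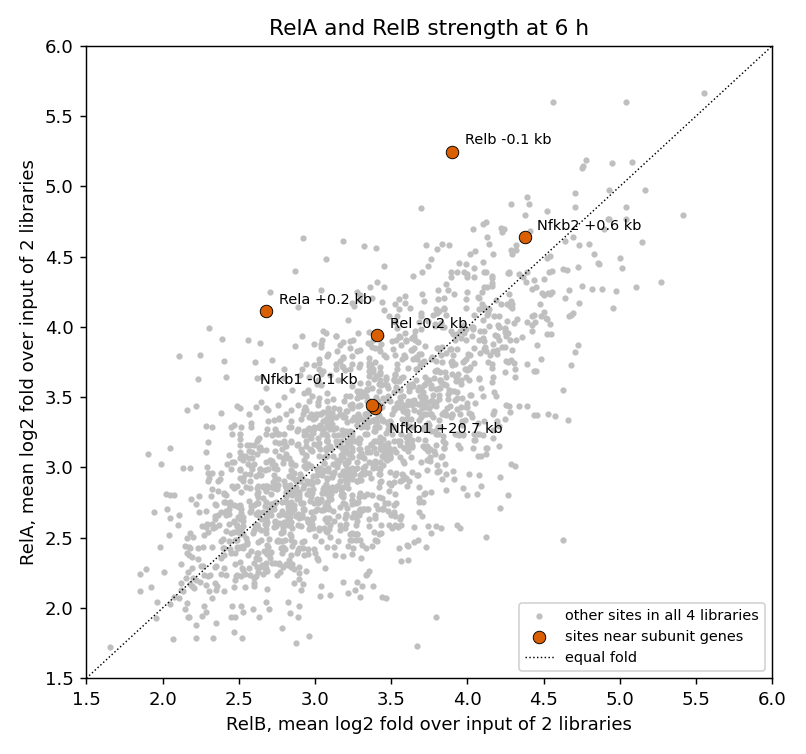
Mean log2 fold over input of the 2 RelA libraries (vertical axis) and the 2 RelB libraries (horizontal axis) at 6 h for the 1860 sites called in all 4 libraries, with the 6 sites near the subunit genes in orange and a dotted line of equal fold. The *Rela* site (RelA 4.11, RelB 2.68) and the *Relb* site (5.25 and 3.90) lie farthest above the line of the 6, and the *Nfkb1* sites lie on it.

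A κB match lay within 100 bp of the centre at 5 of the 6 sites called in all 4 libraries, the exception being the *Rela* promoter. The share over all 1860 such sites was 73.9%, and 17.6% of windows of the same length at annotated start sites held a match. A match is a description of the letters and does not show that a dimer bound there. At *Nfkb2* the matches near the centre of the long joined site were under the peak of RelB replicate 2 alone, and the runs upstream of the start are 594 and more bp from that centre. When the midpoint of the shared stretch was used, a choice made after the data were seen, 4 of the 6 sites had a match within 100 bp, and *Nfkb2* was then an exception as well. The share over all 1860 sites was 76.7% with this midpoint. Both sites called in 3 libraries had a match within 100 bp of the centre. Of the 8 sites near these genes called in at least 2 libraries, 7 thus had one, beside 66.8% of all 4739 such sites. Of the 8 sites called in 1 library 1 had a match, the exonic *Relb* site. The share over all sites called in 1 library was not computed, so that count cannot be compared.

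Other genes of the pathway were described in the same way, from a list of 22 that encode IκB proteins, IKK subunits, upstream kinases, adaptors, a TNF receptor and ubiquitin regulators. Of these, 17 had at least 1 site called in all 4 libraries within 50 kb of the start, and 11 within 1 kb, beside the 8.88% and 0.778% of all genes. The most such sites were near *Tnfaip3*, which encodes the ubiquitin-editing enzyme A20, with 4. *Bcl3*, a nuclear IκB protein, *Nfkbia*, which encodes the inhibitor IκBα, and *Tnip1*, a partner of A20, had 3 each. The neighbouring genes *Birc2* and *Birc3*, ubiquitin ligases of the TNF receptor complex, had 2 each within 50 kb, as did 4 other genes of the list. The start sites of *Birc2* and *Birc3*, chr9:7835255 and chr9:7873186, are less than 50 kb apart. A site can thus count for both, and the 1 within 1 kb of *Birc3* does. No peak was found in any library near *Chuk*, *Ikbkb* and *Ikbkg*, which encode the subunits of the IKK complex, or near *Tnfrsf1a*, which encodes a TNF receptor. The subunit genes had 1 or 2 such sites each.

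At 6 h, 17 of the 22 pathway genes had more peaks in every library than in any 0 h library, beside 11% of all genes. A 0 h peak lay within 50 kb of 2 of them, *Nfkbia* (1 in RelB replicate 1) and *Traf2* (1 in each RelB library). None lay that close to the 5 subunit genes.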

How the data were processed

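Single-end reads were cleaned with cutadapt by the authors and placed on mm9 with Bowtie, and reads that aligned uniquely entered the peak calls, made per library in cisGenome against pooled *Nfkb2*-/- input (windows of 200 bases, at least 4 reads, FDR under 0.1, fold above 2). Replicates were not pooled. The authors deposited for each peak an FDR (a q-value of the call), the highest log2 fold over scaled input, and raw counts of ChIP and input reads, which were used as deposited. Since the fold is the maximum over windows and is computed with 1 read added, it can come from a window without input reads. The list of the input library was not used here.

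Gene positions are those of a GENCODE annotation of mm9, with 1 start site per gene, the 5′ end, and coordinates count from 1. The members and the pathway list were chosen with earlier results of these data known. All 16 sites near the 5 genes were described, and pathway genes were named if they were among the up to 6 with most sites or had no peak. Peak numbers were compared by exact permutation over all 70 splits of 4 against 4 libraries. Log2 folds were fitted with limma (lmFit, eBayes, Benjamini-Hochberg). Alternatives covered distance, start sites, FDR, fold, joining rule, normalization, replicate block, motif window and each library left out. The 1 kb distance, whole-peak reads and the midpoint of the shared stretch were added after seeing the data. The steps were tested on simulated data. Depth is unknown beyond reads in peaks, which limits precision. Python 3.11.15 (numpy 2.4.6, pandas 2.3.3, scipy 1.17.1, matplotlib 3.10.9) and R 4.3.3 (limma 3.58.1) were used.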

Additional observations from a re-analysis of the deposited data

How the results depend on the processing

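Of 176 recomputed values, 155 kept their direction and call or stayed close to the reported count. The 155 include every alternative of the peak numbers, where the direction could not turn because the 0 h counts were 0 throughout. With 1 library left out the exact permutation p was 0.0571, so no call could be gained there. These values are therefore no measure of stability. The number of sites that differed between RelA and RelB by limma (11) was 85 with the replicate number as a block, 41 of them higher in RelA and 44 in RelB. It was 30 with an FDR under 0.01, 18 with a log2 fold of at least 2, and 0 both with centres within 500 bp (327 at an unadjusted p under 0.05) and with whole-peak reads (245). Leaving out 1 library gave 0 to 31 such sites, with 0 without RelA replicate 1 (301 at an unadjusted p under 0.05) or RelB replicate 2 (220). The lone library of an antibody was then assumed to vary like the others. Same-numbered libraries did not deviate together (r = -0.00256 over 1860 sites, which are not independent), so the numbers are not taken to pair them. The block raised the *Relb* promoter difference past the threshold, left *Rela* past it (limma adjusted p = 0.00233) and changed no other call near these genes. The direction turned at the *Nfkb1* intron with whole-peak reads (-0.164), and in leave-outs, which ranged from -0.0856 to 0.378 there and from -0.0295 to 0.257 at the *Nfkb1* promoter. Pathway genes with a shared site numbered 11 within 1 kb and 15 to 17 in leave-outs. Matches to κB within 50 bp were at 2 of the 6 sites, beside 48.9% of all 1860 sites. Sites called in all libraries near the 5 genes numbered 5 to 8 when 1 library was left out. Over the alternatives of the peak numbers the exact p ranged from 0.0286 to 0.143 and the adjusted p from 0.138 to 1. The cause of these changes was not tested. Unknown total reads limit any statement on regions without a peak.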

Other observations

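The limit of 50 kb leaves out a site that was also called with both antibodies and in both replicates. At chr19:46450025-46450202, 70.9 kb downstream of the *Nfkb2* start site and in no annotated gene, all 4 libraries at 6 h had a peak, with log2 folds of 3.70 and 3.68 in RelA and 3.96 and 3.62 in RelB, from 43, 46, 51 and 44 ChIP reads. The nearest annotated start site, 16587 bp away, was that of *SNORA32*.

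Another site inside *Nfkb1*, in an intron at chr3:135291671-135292177, lay 62.6 kb downstream of the start. It was called in 3 libraries, with 2.79 and 2.92 in RelA and 2.80 in RelB replicate 1, from 28, 22 and 12 ChIP reads. The peak just beyond the limit was 52.2 kb downstream of *Rela* in RelB replicate 2 (2.98, from 16 ChIP reads), 512 bp from the start site of *Map3k11*, and the farthest peak within it was the one 36.1 kb upstream of *Relb*.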
